A study of Rattus norvegicus with 48 samples.

Results

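The diet effect at week 8 was measured in the liver RNA of 16 rats, 8 on CDAA, an L-amino acid-defined diet that lacks choline and holds 1% cholesterol, and 8 on CSAA, its counterpart with choline. These are 16 of the 48 animals of the study, and they were chosen by the diet and the week in the sample labels. All were male Wistar rats (RjHan:WI), 6 weeks old at purchase and housed pairwise, and the labels do not give the cage. CDAA held 0.17% methionine and drew 31% of its energy from fat, 58% from carbohydrate and 11% from protein, whereas CSAA held 0.4% methionine and drew 16% from fat, 72% from carbohydrate and 12% from protein. The groups thus differed in choline, methionine, cholesterol and fat together, and the parts of these components cannot be told apart. The other 32 animals had the same diets for 4 or 12 weeks, and no animal was measured at more than 1 week.

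Choline is needed to make phosphatidylcholine, which hepatocytes use to export fat in very low density lipoprotein. A diet without choline and low in methionine leaves fat in the liver, and with added cholesterol it is used in rats as a model of steatohepatitis with inflammation and fibrosis. In such a liver, inflammatory and matrix-producing cells add their RNA to that of hepatocytes. In RNA of whole liver tissue, fewer cells of a type and less RNA per cell cannot be told apart.

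Reads were counted per Ensembl gene. Genes are listed by identifier alone, and neither the tables nor the gene table used here pairs these identifiers with names. Genes are therefore described by numbers, effect sizes, lengths and levels, and 4 of them by identifier. For the same reason the labelled tissue could not be checked against liver markers.

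Between 15581713 and 20567511 reads per animal fell on genes on CSAA and between 14461769 and 20231354 on CDAA, so the diets had overlapping depths. Reads were found on 14782 to 15766 genes per animal on CSAA and on 16050 to 16505 on CDAA, without overlap. The gene with the most reads took 9.88 to 12.6% of them on CSAA and 6.58 to 9.61% on CDAA. The TMM factor, which corrects the library size for such differences in composition, lay between 0.779 and 1.01 on CSAA and between 1.18 and 1.34 on CDAA. In 56 pairs of animals of the same diet, the chi-square per gene was at least 11.8, where sampling noise alone gives about 1, so each animal was counted as a separate sample.

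At week 8 the diet changed the level of a large part of the expressed genes, and at a log2 fold change of 1 or more in size, more genes were higher than lower on CDAA. Without this threshold on size, more genes were lower than higher. With the relation of each animal to gene length removed (described next), 3271 of 12756 tested genes were called (25.6%), where a call needs a Benjamini-Hochberg adjusted p under 0.01 in edgeR's quasi-likelihood test and a log2 fold change of 1 or more in size. Of these, 2128 genes (16.7% of those tested) were higher and 1143 (8.96%) lower on CDAA. limma-voom, with the same removal, called 3300 genes (25.9%), 2182 higher (17.1%) and 1118 lower (8.76%). At an adjusted p under 0.01 and any fold change, 8219 genes (64.4%) passed edgeR's test, 3937 higher and 4282 lower. Without removal of the length relation, this order was the other way round, with 4437 higher and 4164 lower genes. The median log2 fold change of all tested genes was close to 0, at -0.02, and it was 0.02 without CSAA animal 504 (described further on). The genes passing at any fold change were not counted without this animal.

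The changes were mostly of moderate size. Genes called higher had a median log2 fold change of 1.65, with the middle 50% between 1.29 and 2.13. For genes called lower the median was -1.36, with the middle 50% between -1.70 and -1.14. A log2 fold change of at least 2 in size was found for 657 higher and 179 lower genes, at least 3 for 81 and 65, and at least 4 for 6 and 27. The balance of the directions at large sizes rested on 1 CSAA animal, number 504, which is described further on. Without it, 282 higher and 63 lower genes reached 3 and 61 and 27 reached 4. With all animals, the log2 fold changes ranged from -10.29 to 6.69. Over all tested genes the median was -0.02 and the range from the 5th to the 95th percentile -1.30 to 2.02. The median standard error was 0.27 for the genes called higher, 0.14 for those called lower and 0.12 over all tested genes. Called genes were not replicates of each other, and these medians describe sets that were selected by size.

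The relation of expression to gene length differed between the animals and was examined next. Length was taken as the ratio of the deposited counts to the deposited RPKM (reads scaled to gene length and library size), and had a median of 2255 bases over the tested genes, with a range of 110 to 23830 bases. For each animal, the slope of log2 CPM on log2 length was calculated after subtraction of the mean of each gene over all 48 animals. A slope of 0.2 means that a gene of double length was 0.2 log2 units higher, relative to the average animal of the study.

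All 8 CDAA animals of week 8 had positive slopes, from 0.186 to 0.241, and all 8 CSAA animals had negative slopes, from -0.258 to -0.0715. CDAA animals had a mean of 0.214 ± 0.0184 (SD, n = 8) and CSAA animals one of -0.198 ± 0.0579 (SD, n = 8). The difference of 0.412 was larger than the spread between animals (two-sided exact permutation test over 12870 splits, p = 0.000155, which is the lowest value possible with 8 animals per diet, adjusted p = 0.000259 over 5 tests). It was 0.459 among genes with a mean of at least 5 CPM. Animal 504 held the highest slope on CSAA, and without it the difference was 0.430.

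That the length relation is widest at week 8 was known from earlier results of these data, so the following values describe it and are no independent evidence for it. At week 4 the difference of the slopes between the diets was 0.115 (exact permutation test, p = 0.0169). CDAA had a mean of -0.0674 ± 0.0799 (SD, n = 8) and CSAA one of -0.182 ± 0.0800 (SD, n = 8). Animal 303 held the lowest slope on CDAA at week 4, -0.250, where the median of the group was -0.0585. The difference at week 4 was not calculated without it. At week 12 the difference was 0.233 (exact permutation test, p = 0.000155). CDAA had a mean of 0.233 ± 0.0314 (SD, n = 8) and CSAA one of 0.000107 ± 0.0855 (SD, n = 8). The difference at week 8 exceeded that at week 4 by 0.297 (exact permutation test of week labels within each diet, p = 0.000129, adjusted p = 0.000259). The difference at week 8 exceeded that at week 12 by 0.179 (exact permutation test of week labels within each diet, p = 0.00307, adjusted p = 0.00384). By these means, CSAA stood low at weeks 4 and 8 and CDAA stood high at weeks 8 and 12, so that low slopes of CSAA met high slopes of CDAA at week 8. These animals differ by diet and by any handling that went with it, and since the labels name no batch, a biological and a technical source of the slope cannot be told apart.

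**Figure D1:**
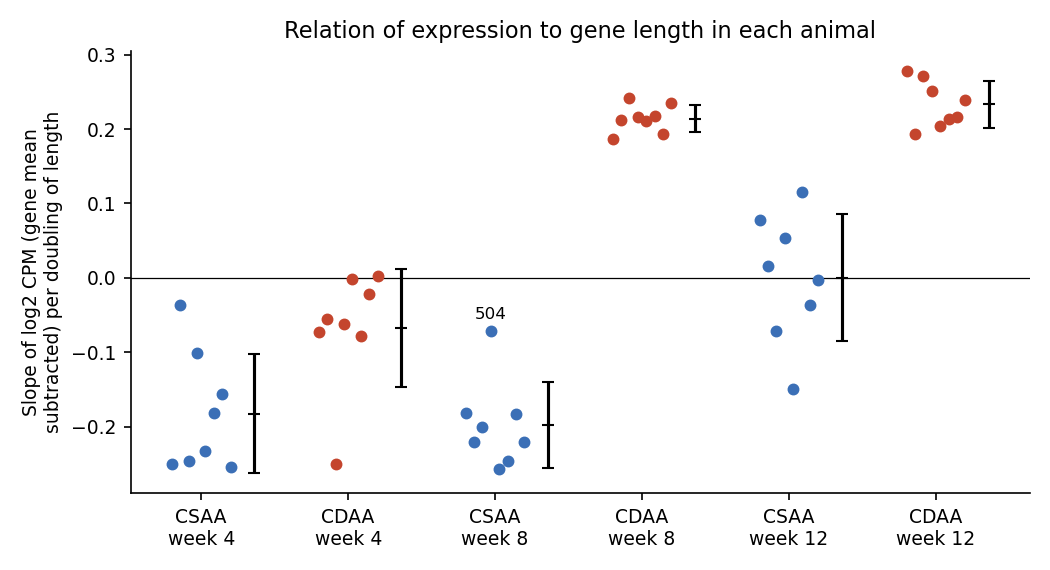
Slope of log2 CPM on log2 gene length for each of the 48 animals (points), by diet and week, with the mean and SD of 8 animals beside each group (black). At week 8, CDAA animals lie between 0.186 and 0.241 and CSAA animals between -0.258 and -0.0715, with animal 504 highest on CSAA.

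Without removal of this relation, short genes were lower and long genes higher on CDAA. Genes were divided by length into 5 classes of equal number. In the shortest class, 110 to 1349 bases, the median log2 fold change at week 8 was -0.60, and in the longest class, 3821 to 23830 bases, it was 0.44. The classes between them had medians of -0.19, 0.03 and 0.25. At week 4 the medians of the shortest and longest classes were -0.21 and 0.06, and at week 12 -0.35 and 0.22, so the step across length was widest at week 8. After removal, the medians of all 5 classes at week 8 lay between -0.03 and -0.02.

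**Figure D2:**
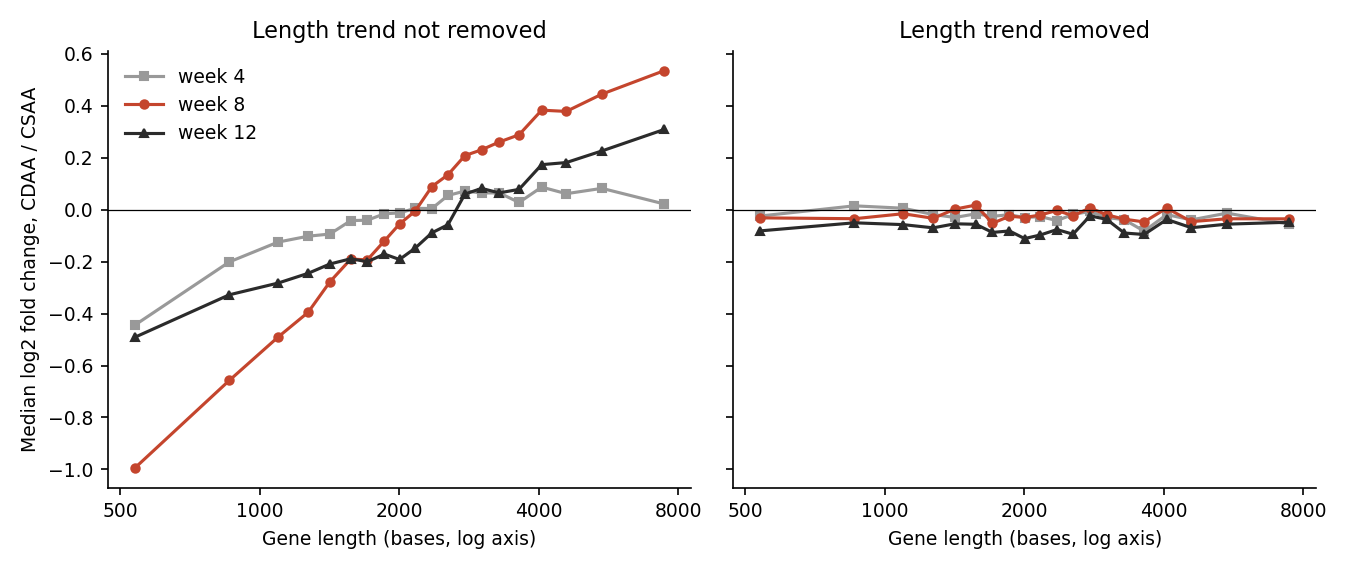
Median log2 fold change of CDAA against CSAA (y axis) in 20 classes of genes ordered by length (x axis, bases, log scale), at weeks 4, 8 and 12, without (left) and with (right) removal of each animal's relation to length. Without removal, week 8 runs from -0.99 for the shortest genes to 0.54 for the longest, the widest range of the 3 weeks. With removal, all 3 weeks lie near 0.

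The removal changed the calls at both ends of the length scale. Without it, 3856 genes were called (30.2%), 2310 higher (18.1%) and 1546 lower (12.1%), and the share of higher genes among the called was 59.9% against 65.1% with removal. In the shortest class, 32.4% of the genes were called lower without removal and 11.3% with it. In the longest class, the share called higher went from 26.4% to 16.3%. The median length of genes called higher moved from 2787 to 2198 bases and that of genes called lower from 1279 to 2060 bases, with 2255 bases over all tested genes.

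Calls of decreases depended on the removal more than calls of increases. Of the 1546 genes called lower without removal, 646 (41.8%) were not called with it. These were short, with a median length of 879 bases, and abundant, with a median of 30.6 RPKM. Of the 2310 genes called higher, 433 (18.7%) were not called with removal, and their median length was 4201 bases. In return, 251 genes with a median of 1026 bases were called higher and 243 genes with a median of 3800 bases were called lower with removal alone. A total of 1877 higher and 900 lower calls were shared, and no gene was called in opposite directions. Most of the calls that were lost stayed at an adjusted p under 0.01 (edgeR), 362 of 433 higher and 542 of 646 lower genes, and fell below the fold change threshold.

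Levels of expression were also related to the effect. Among the 714 genes with a mean of 100 RPKM or more over the 16 animals, 31.0% were lower and 4.06% higher on CDAA. Among the 4005 genes between 10 and 100 RPKM, 12.5% were lower and 5.97% higher. This order was the other way round at low levels, with 5.31% lower and 17.3% higher among 6247 genes between 1 and 10 RPKM, and 4.92% lower and 43.5% higher among 1790 genes under 1 RPKM. The median log2 fold changes of these classes were -0.66, -0.27, 0.07 and 0.91. A gene under 1 RPKM may have passed the filter only through the group in which it was high, so its class is not free of selection.

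**Figure D3:**
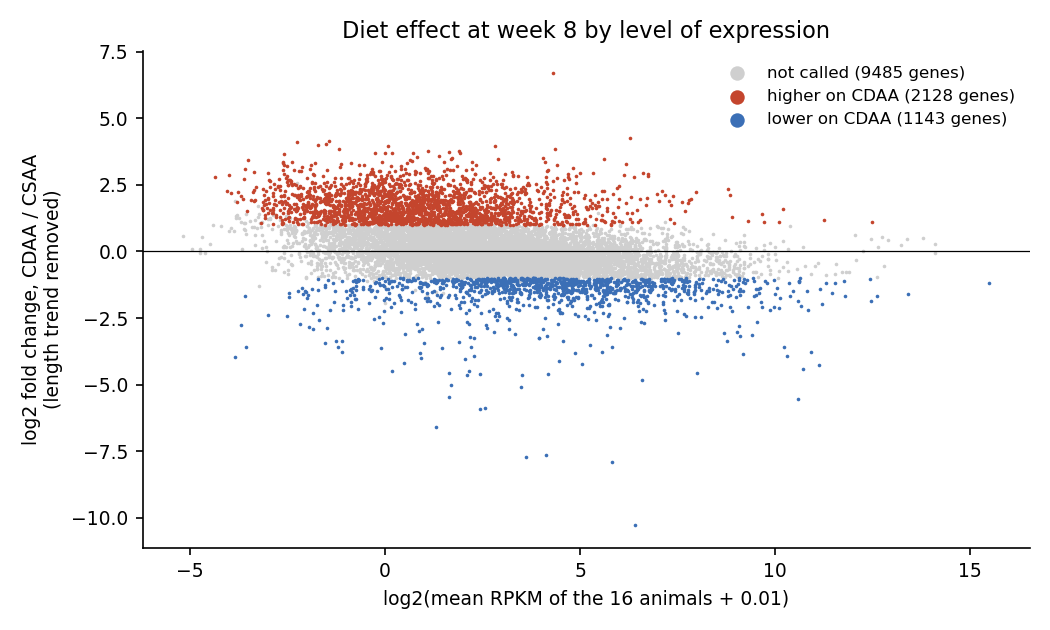
log2 fold change of CDAA against CSAA at week 8 with the length relation removed (y axis), against log2 of the mean RPKM of the 16 animals plus 0.01 (x axis), for 12756 genes. The 2128 genes called higher (red) are mostly of low level, and the 1143 called lower (blue) reach into the most abundant genes.

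Length and level were themselves related, since abundant genes were shorter. The median length was 1295 bases at 100 RPKM or more and 2983 bases under 1 RPKM. The slope of the log2 fold change on log2 length was therefore calculated within each class of level. Without removal it was positive in every class, 0.172 under 1 RPKM, 0.241 between 1 and 10, 0.333 between 10 and 100 and 0.459 at 100 RPKM or more. With removal it was 0.00700 over all tested genes, but -0.182, -0.158, -0.108 and -0.00361 within these classes. The removal over all genes thus took out more than the slope within the classes under 100 RPKM, and effects of short genes of low level are set high, and those of long genes of low level low, to that extent. The order by level was also seen within length classes when the genes under 1 RPKM were left aside. In the shortest length class the median log2 fold change with removal was 0.35 between 1 and 10 RPKM, -0.19 between 10 and 100 and -0.55 at 100 RPKM or more. In the longest it was -0.07, -0.39 and -0.85, the last from 18 genes.

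In shares of reads, the genes called lower were the larger group in number of reads. On CSAA they took a median of 42.6% of all reads on genes (35.7 to 43.5%) and on CDAA 22.3% (21.1 to 26.5%). The genes called higher took a median of 1.33% on CSAA (1.20 to 3.07%) and 6.50% on CDAA (5.48 to 7.10%). Animal 504 held the lowest share of the former, 35.7%, and the highest share of the latter, 3.07%, with the other 7 CSAA animals at 40.6% or more and at 1.98% or less. These shares describe genes chosen by the same contrast.

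A smaller number of genes was near absent on 1 of the diets. At most 5 reads in every CSAA animal were found for 93 tested genes, and 79 of them were called higher on CDAA, with a median of the group means of 0.568 CPM on CDAA and a highest mean of 6.71 CPM. With animal 504 left aside, 239 genes had at most 5 reads in each of the other 7 CSAA animals, and 200 of them were called higher. On CDAA, at most 5 reads in every animal were found for 7 genes, of which 6 were called lower. The filter on low counts asked for expression in any group of the study, the other weeks included. A gene with few reads on both diets could thus be tested through its level at another week. These numbers depend on that filter and are not a comparison of the directions.

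The genes described by identifier had the largest changes with and without removal of the length relation, without overlap of the diets and with a mean of at least 10 CPM in the higher group. This held for 463 genes that rose and 702 that fell, and the first of each direction by fold change are given. Values are CPM scaled with TMM and adjusted for each animal's relation to length. As they were chosen by this contrast, their fold changes and p describe the upper end of the range.

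ENSRNOG00000019058, with a length of 657 bases, was low in most CSAA animals and high in all CDAA animals. Its values on CSAA ranged from 0.502 to 24.6 CPM with a median of 1.20, and on CDAA from 71.8 to 121.7 CPM with a median of 103.5. The lowest CDAA animal thus lay above the highest CSAA animal, which was animal 504, and the other 7 CSAA animals had at most 6.98 CPM. The log2 fold change was 4.28 (standard error 0.59, adjusted p = 1.59e-08, edgeR), 3.54 without removal of the length relation, and 5.42 without animal 504.

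ENSRNOG00000042445, with a length of 1515 bases, showed the same pattern at a lower level. It had 0 to 5.23 CPM on CSAA with a median of 0.148, and 11.3 to 21.8 CPM on CDAA with a median of 17.6. Again animal 504 was highest on CSAA, with the others at 1.99 CPM or less and 2 animals at 0 reads. The log2 fold change was 3.97 (standard error 0.62, adjusted p = 2.12e-07, edgeR), 3.76 without removal and 5.16 without animal 504. limma-voom gave 5.78 for this gene and 5.39 for ENSRNOG00000019058, so the size of both increases depended on the test.

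ENSRNOG00000008050, with a length of 1548 bases, was lost on CDAA. It ranged from 124 to 549 CPM on CSAA, with a median of 264, and from 0 to 0.442 CPM on CDAA, with a median of 0.258. All 8 CDAA animals together had 36 reads of this gene, against 35435 on CSAA. The log2 fold change was -10.29 (standard error 1.06, adjusted p = 1.18e-11, edgeR), and -10.50 without removal. Animal 504 had 215 CPM, within the range of the other CSAA animals.

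ENSRNOG00000033415, with a length of 304 bases, was likewise expressed on CSAA and near 0 on CDAA. Its values ranged from 8.73 to 39.1 CPM with a median of 29.4 on CSAA, and from 0 to 0.274 CPM with a median of 0.131 on CDAA. On CDAA, 3 animals had 0 reads and the 8 animals together 12 reads, so the size of the decrease rests on few reads. The log2 fold change was -7.90 (standard error 1.08, adjusted p = 1.58e-08, edgeR), and -9.03 without removal, the largest shift by length among the 4 genes. Animal 504, with 36.4 CPM, again lay with the other CSAA animals.

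**Figure D4:**
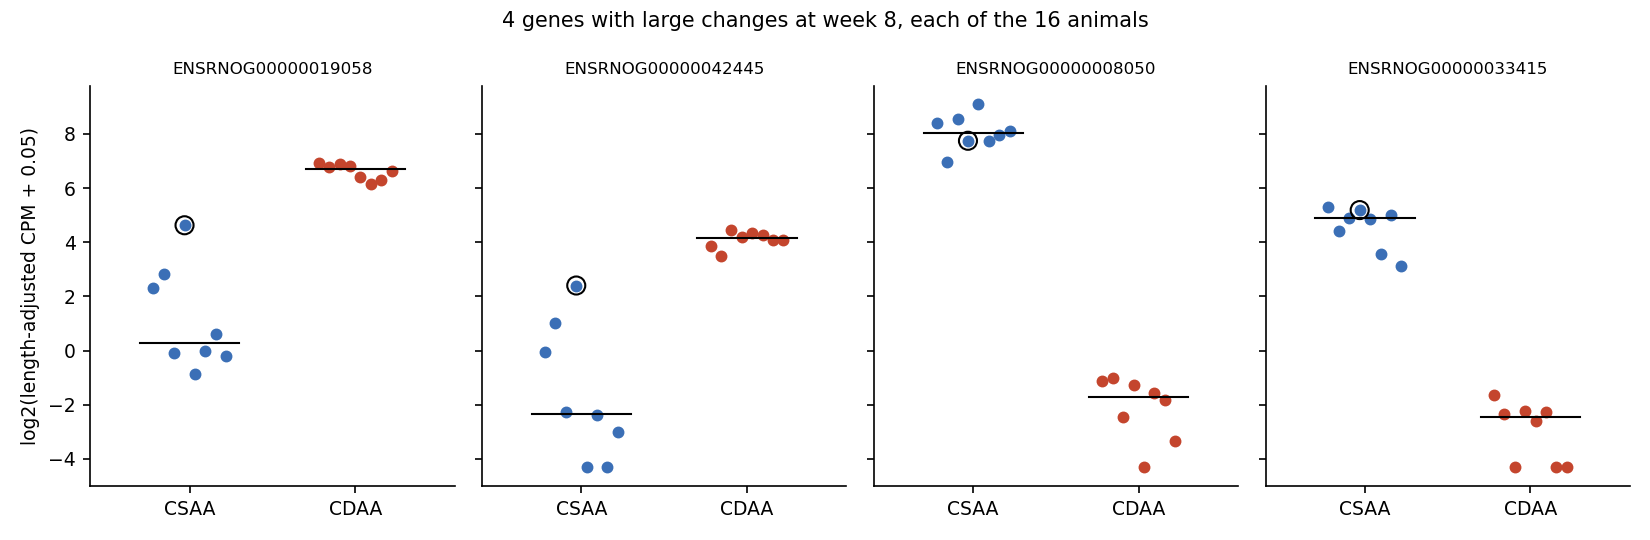
Level of 4 genes in each of the 16 animals of week 8, as log2 of length-adjusted CPM plus 0.05 (y axis), with the median of each diet as a line. No gene has overlapping diets, and animal 504 (black ring) is the highest CSAA animal for both genes that rose and lies among the others for both that fell.

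Animal 504 lay between the diets for the rising genes and was then examined over all genes. It had been marked in advance for a check with and without it, so its shift is described here and was not first found here. Its position was defined as 0 at the mean of the other animals of its own diet and 1 at the mean of the other diet, on log2(CPM + 0.5), over genes called without this animal and with a mean of at least 10 CPM. The median position of animal 504 was 0.390 over 1424 genes. The other 7 CSAA animals lay between -0.128 and 0.123, and the 8 CDAA animals, scored in the same way toward CSAA, between -0.0552 and 0.127. The level of animal 504 was shifted toward CDAA in 97.3% of these genes. This share was 79.5% in animal 502 and 20.6 to 45.0% in the other CSAA animals. On CDAA, scored toward CSAA, it was 33.5 to 79.7%.

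The shift of animal 504 was larger in the genes that rose than in those that fell. The median position was 0.618 over the 523 genes higher on CDAA and 0.303 over the 901 lower genes. It lay within the range of the CDAA animals for 19.3% of the higher and 2.66% of the lower genes, 125 genes in all. In animal 502, the CSAA animal with the next highest position, the values were 0.290 and 0.0701. Positions over genes are a description, as genes of 1 animal are not replicates.

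**Figure D5:**
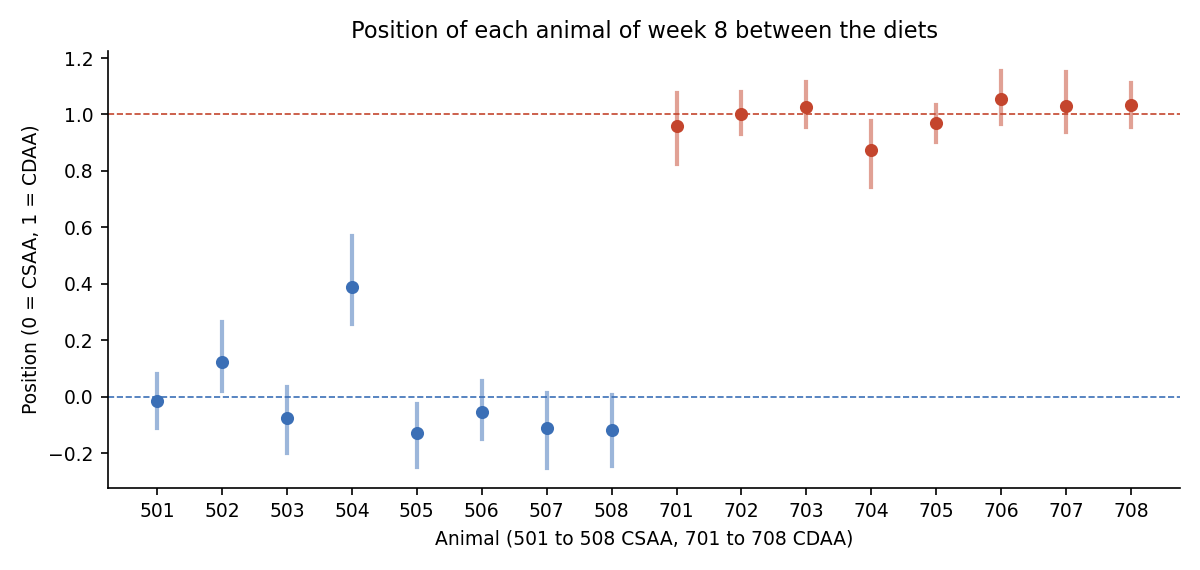
Position of each animal of week 8 between the diets (y axis, 0 is CSAA and 1 is CDAA), as the median over genes called without that animal (points) with the middle 50% of the genes (bars). Animal 504 lies at 0.390, and the other CSAA animals lie at 0.123 or less.

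Leaving out animal 504 added increases and left decreases nearly as they were. In that fit 3554 genes passed (27.9%), 2421 higher (19%) and 1133 lower (8.88%), and 68.1% of the called genes were higher. In common with the fit of all animals were 2123 higher and 1118 lower genes, 298 higher and 15 lower genes were called only without animal 504, and 5 and 25 only with it. The absolute log2 fold change was larger without it by a median of 0.23 in the genes called higher and of 0.00 in those called lower. Genes with a log2 fold change of at least 3 increased from 81 to 282, whereas those of at most -3 went from 65 to 63. Without animal 504 and without removal of the length relation, 4095 genes were called (32.1%), 2569 higher (20.1%) and 1526 lower (12%).

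Among the genes called higher, many overlaps of the diets came through the same animal alone. Over all tested genes, the values of the diets did not overlap in 38.4%, with 2036 genes entirely higher (16%) and 2865 entirely lower (22.5%) on CDAA. Of the genes called higher, 1324 (62.2%) did not overlap, and of those called lower 1016 (88.9%). Without animal 504 it was 1775 (83.4%) and 1045 (91.4%), where 46.7% of all tested genes did not overlap, 21.7% higher and 25% lower. A total of 451 higher genes overlapped through animal 504 alone, compared with 3 to 27 through any other single CSAA animal and 18 to 110 through any single CDAA animal.

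The spread between animals was larger on CSAA than on CDAA, also apart from animal 504. Over 7350 genes with a mean of at least 10 CPM, the median SD on log2(CPM + 0.5) was 0.175 on CSAA and 0.131 on CDAA. Without animal 504 it was 0.159 on CSAA, and without any 1 of the other CSAA animals 0.173 to 0.179. The SD was larger on CSAA in 73.0% of the genes, and in 64.6% without animal 504.

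Set beside the other weeks, most increases of week 8 were also called at week 4, whereas decreases were more numerous at week 8 than at week 4. Decreases were most numerous at week 12. With removal of the length relation, week 4 had 2487 called genes (19.5%), 1970 higher (15.4%) and 517 lower (4.05%). Week 12 had 3798 called genes (29.8%), 2442 higher (19.1%) and 1356 lower (10.6%). The calls of week 4 include CDAA animal 303, and those of week 12 include CSAA animal 908, which both lay apart from their groups. Calls at these weeks were not counted without them. How far the counts and the shared genes of the weeks depend on these animals was therefore not tested. Of the genes higher at week 8, 1642 were also called higher at week 4, which is 77.2% of those of week 8 and 83.4% of those of week 4. Of the genes lower at week 8, 410 were also called lower at week 4, 35.9% of those of week 8 and 79.3% of those of week 4. With week 12, 1883 higher genes were shared (88.5% and 77.1% of the respective weeks) and 753 lower genes (65.9% and 55.5%). Across all tested genes, Pearson's r of the log2 fold changes was 0.859 between weeks 8 and 4 and 0.896 between weeks 8 and 12, as a description over genes that are not independent.

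Most genes called at week 8 alone did not pass a test of the difference from another week. A total of 141 higher and 356 lower genes were called at week 8 and at neither other week. Their median log2 fold changes were 1.19 and -1.18 at week 8, against 0.60 and -0.59 at week 4, and 0.67 and -0.68 at week 12. In the test of the difference of the diet effect (diet by week interaction, edgeR, the same thresholds), 28 of the 141 genes (19.9%) and 69 of the 356 (19.4%) differed from at least 1 other week. Of the 141 higher genes, 21 differed from week 4, 11 from week 12 and 4 from both, and of the 356 lower genes 35, 53 and 19. These genes were chosen by calls from the same animals, so their shares are a description.

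Tested in this way, the effect of the diet at week 8 was unlike that at week 4 in 247 genes (1.94%), more positive at week 8 in 130 (1.02%) and more negative in 117 (0.917%). Between weeks 12 and 8 it differed in 333 genes (2.61%), more positive at week 12 in 201 (1.58%) and more negative in 132 (1.03%). Of the 130 genes with the more positive effect at week 8 than at week 4, 61 were called at neither week, 54 were called higher at week 8 alone and 13 were called lower at week 4 alone. Of the 117 with the more negative effect, 57 were called lower at week 8 alone, 20 were called lower at both weeks, 17 were called higher at both, 15 were called higher at week 4 alone and 8 were called at neither week.

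The differences between weeks depended on the length relation more than the calls at week 8 itself. Without removal, 542 genes (4.25%) differed between weeks 8 and 4, with 155 (1.22%) more positive and 387 (3.03%) more negative at week 8. Between weeks 12 and 8 it was 511 genes (4.01%), with 372 (2.92%) more positive and 139 (1.09%) more negative at week 12. The 2 fits shared 173 and 245 genes. The 369 genes that differed from week 4 without removal alone had a median length of 958 bases. Genes below both other weeks at week 8 numbered 143 without removal and 28 with it, and genes above both 4 and 13, where both tests use the animals of week 8. Animal 908 of CSAA at week 12 also mattered, since without it 595 genes differed between weeks 12 and 8, 429 more positive at week 12.

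Of the 4 genes above, both that fell had a smaller decrease at week 4. ENSRNOG00000008050 had a log2 fold change of -3.81 at week 4 and -9.86 at week 12, and the difference between weeks 8 and 4 was -6.48 (adjusted p = 0.000125, edgeR). At week 4 animal 303 of CDAA had 154 CPM, whereas the other 7 CDAA animals had 0.186 to 14.6 CPM, and without animal 303 the difference was -3.66 (adjusted p = 0.00140, edgeR). For ENSRNOG00000033415 the values were -2.44 at week 4 and -8.23 at week 12, with a difference between weeks 8 and 4 of -5.46 (adjusted p = 0.00404, edgeR). Animal 303 had 38.4 CPM of it and the other 7 at most 3.84 CPM, and without animal 303 the difference of -2.50 did not pass (adjusted p = 0.128, edgeR).

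The rising genes had log2 fold changes of 6.41 at week 4 and 4.59 at week 12 for ENSRNOG00000019058, and of 6.21 and 3.84 for ENSRNOG00000042445. Their differences between weeks 8 and 4 of -2.12 and -2.23 did not pass (adjusted p = 0.0941 and 0.230, edgeR). Without animal 504 they were -0.998 and -1.06 (adjusted p = 0.429 and 0.609, edgeR). Between weeks 12 and 8 the differences were 0.31 and -0.14 (adjusted p = 0.807 and 0.923, edgeR), and without animal 908 they were 2.27 and 2.52 (adjusted p = 0.0219 and 0.0229, edgeR). None of these differences passed at an adjusted p under 0.01, so no order of the weeks was established for either gene. The sizes of the differences depended on the CSAA animals 504 and 908. On CSAA the median of ENSRNOG00000019058 was 0.447, 1.20 and 0.739 CPM at the 3 weeks in order, and its highest value was 1.39 CPM at week 4, 24.6 in animal 504 of week 8 and 18.3 in animal 908 of week 12. On CDAA its median was 53.2, 103.5 and 67.3 CPM at the 3 weeks.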

How the data were processed

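Liver RNA of 48 animals was sequenced as single-end reads, and 16 animals of week 8 were compared by diet. The authors aligned reads to Rnor_6.0 (Ensembl annotation) with STAR and counted them per gene with featureCounts. They deposited these counts without normalization. RPKM values were deposited by the authors too and served here for gene length (the median over animals of counts over RPKM, at least 10 reads) and for levels. The submitters' processing notes also name FastQC and Cufflinks.

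edgeR 4.0.16 in R 4.3.3 was fitted to all 48 animals, with 1 coefficient per diet and week, TMM and the quasi-likelihood test, over 12756 of 32662 genes. A gene was tested if 5 or more animals of any group reached 1 CPM. For each animal, a lowess curve (span 0.3, 3 iterations) of log2 CPM (prior count 2) minus the gene mean on log2 length entered as an offset. Standard errors are the log2 fold change over the root of F. The study used limma-voom. Here it was run with limma 3.58.1 as an alternative, beside DESeq2 1.42.0, other scalings, no filter, RPKM with a pseudocount of 0.1, and each animal of week 8 left out. Scripts were tested on simulated counts.

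Genes named by identifier were the 2 largest changes with removal in each direction. They were taken among genes called with and without removal, without overlap and with a mean of at least 10 CPM in the higher group. The rest of the naming rule, marker lists and gene lists needed gene names and were not applied. The members and lists were chosen with earlier results of these data known. Animals are separate samples by their labels, and the spread between 8 animals, more than counting error, limits the precision. Housing pairs, which were not given, and sequencing batches, which the labels do not name, were not modelled.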

Additional observations from a re-analysis of the deposited data

Results flagged for a closer look

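A value far from the other 7 was looked for in 20 combinations of a measure with a group of 8 animals, and 4 held one, where chance gives about 1 in 20, or 1. All 4 belonged to animal 504 of CSAA at week 8. Its TMM factor was 1.01, its slope on gene length was -0.0715, and its levels of ENSRNOG00000019058 and ENSRNOG00000042445 were 24.6 and 5.23 length-adjusted CPM, each the highest of the CSAA animals and on the side of CDAA. The measures come from 1 library and are not independent of each other. Both genes were chosen by the same contrast, and animal 504 had been marked in advance for a check with and without it. The 4 values are therefore no new evidence that it lay apart, and the number from chance is no test of it. All 4 are values of week 8, and animals of other weeks also lay apart. At week 12, animal 908 of CSAA had 18.3 CPM of ENSRNOG00000019058, and the other 7 had at most 1.62 CPM. At week 4, animal 303 of CDAA had 154 CPM of ENSRNOG00000008050, and the other 7 had at most 14.6 CPM.

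The diet effect differed between weeks in these results. ENSRNOG00000008050 fell further at week 8 than at week 4 by a log2 difference of -6.48, which was -3.66 without animal 303 of CDAA at week 4, and ENSRNOG00000033415 by -5.46, a difference that did not pass without animal 303. In all, 247 genes had another diet effect at week 8 than at week 4, and 333 another one at week 12 than at week 8, which became 595 without animal 908 of CSAA at week 12. The difference of the length slope between the diets was larger at week 8 than at week 4 by 0.297 and larger than at week 12 by 0.179. Why animal 504 lay apart and why the length slope differed was not tested.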

How the results depend on the processing

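The 4 genes named by identifier kept direction and call under 12 alternatives and 16 fits without 1 animal of week 8. Calls at week 8 moved with a test against the fold change threshold, to 1452 genes, 934 higher and 518 lower, as that test asks for more than a filter on fold change. With library size alone, 3895 genes were higher and 325 lower (92.3% higher), as the median log2 fold change of all tested genes shifted to 0.58 from -0.02. Leaving out 1 animal of week 8 gave 3187 to 3554 called genes, 2068 to 2421 higher and 1111 to 1184 lower. Without removal of the length relation, 542 genes differed between weeks 8 and 4 (387 more negative) and 511 between weeks 12 and 8 (372 more positive). Without 1 animal of week 8 the first was found in 221 to 282 genes (111 to 178 more positive, 103 to 136 more negative) and the second in 305 to 370 (181 to 224 and 117 to 147). Leaving out animals 303 or 908, chosen after seeing the data, gave 220 genes for weeks 8 and 4 and 595 (429 more positive) for weeks 12 and 8. The other animals of weeks 4 and 12 were not left out. The position of animal 504 was 0.374 without removal of the length relation and 0.497 without a minimum of CPM, both chosen after seeing the data. No paired analysis was possible because the diets were given to different animals, and the labels link no animal of 1 diet to an animal of the other. Since the length relation was removed over all genes, it stayed below 0 within the lower classes of level.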
